A study of Rattus norvegicus with 7 samples.

Results

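Histone-modifying enzyme genes were followed in rat kidney epithelial cells after transfection with siRNAs directed at Adamts16, a gene for a secreted metalloprotease. They were the 72 genes, of 14217 on the array, whose symbol in the platform annotation began with Kdm, Kmt2, Kmt5, Setd, Hdac, Sirt, Ezh, Ehmt, Suv39, Kat, Prmt or Nsd, plus Mysm1 and Taf1. Together they were read by 129 of the 31099 probe sets. Of these, 75 belonged to writers, which add methyl or acetyl groups, 50 to erasers, which remove them, and 4 to Mysm1 and Taf1. A filter kept the brightest 60% of probe sets by mean log2 signal. It left 118 of the 129 for testing, from 69 genes, with 67 writer and 47 eraser probe sets among them. The 11 probe sets that did not pass the filter included every one for Hdac11, Kdm4d and Prmt8.

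NRK-52E is an established epithelial line from normal rat kidney. The first group carried siRNA 3488 (2 arrays), the next siRNA 2600 (2 arrays), both directed at Adamts16, and the control group a scrambled siRNA (3 arrays). All 7 cultures were transfected by lipofection at 100 pmol of siRNA per ml and harvested at 48 h, so the controls too had been exposed to lipid and to a duplex. Each array stood for 1 independent culture, of a single line, and transient transfection leaves the share of cells that took up siRNA unknown here. In such bulk samples, fewer expressing cells and less RNA per cell cannot be told apart.

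The 3 antisense strands are shown because the groups differ in them and in nothing else the labels state. Each is given 5′ to 3′ without its overhang, with bases 2 to 8, the seed by which an siRNA also recognises partly matching transcripts, in capitals. The 3 seeds differ from each other.
siRNA 3488: tTTCCGGAgacgtacttct
siRNA 2600: tTGCGCACagaaatatagg
scrambled control: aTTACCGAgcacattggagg

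Histone tails carry methyl and acetyl groups that mark active or silent chromatin. Methyltransferases with a SET domain place methyl groups on lysines. Setd1 enzymes and most Kmt2 enzymes do so on lysine 4 of histone H3 at active genes. At silent ones, Ehmt, Setdb and Suv39h enzymes do so on lysine 9 and Ezh enzymes on lysine 27. Nsd enzymes and Setd2 act on lysine 36 of transcribed genes, and Kmt5 enzymes on lysine 20 of histone H4. Kdm enzymes take these methyl groups off, Kat enzymes place acetyl groups, and Hdac enzymes and sirtuins remove them. Mysm1 removes ubiquitin from histone H2A, and Taf1 is the largest subunit of TFIID, the factor that positions RNA polymerase II at promoters.

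Adamts16 itself was dim on every array. Its signals were 12.1 and 40.4 on the siRNA 3488 arrays and 21.4 and 2.42 on the siRNA 2600 arrays, against 8.68, 7.18 and 18.9 on the controls. Its probe set did not pass the filter, so the knockdown could not be checked. Of the markers listed for the labelled cell type, 8 of 21 epithelial and kidney tubule genes passed the filter, among them Krt8, Tjp1, Aqp1 and Lrp2, while Cdh1, Epcam, Krt18, Pax8 and Umod did not. Fibroblast markers passed in 7 of 12 cases, with Vim, Col1a1 and Col3a1 among them, endothelial markers in 1 of 7 (Pecam1 and Vwf did not) and leukocyte markers in 3 of 7 (Ptprc did not). The first principal component of all tested probe sets held 39.2% of the variance. On it the siRNA 3488 arrays stood apart at -22.3 and -37.2. The siRNA 2600 replicates were at 17.7 and -6.72, so that the first lay among the scrambled controls (11.4 to 20.1). The beta-actin 3′ to 5′ ratio, a measure of RNA quality, was 1.96 and 1.94 on the siRNA 3488 arrays and 1.83 and 1.81 on the siRNA 2600 arrays, against 1.74 to 1.79 on the controls. That of hexokinase was 4.71 and 3.73 on the siRNA 3488 arrays and 3.54 and 2.28 on the siRNA 2600 arrays, against 2.39 to 2.98 on the controls. That of GAPDH, at 0.941 and 0.929 on the siRNA 3488 arrays and 1.04 and 0.929 on the siRNA 2600 arrays, against 0.908 to 0.948 on the controls, did not separate the groups. The 18 hybridisation spike-ins lay at a median of 0.34 and 0.71 above their mean control level on the siRNA 3488 arrays and at -0.08 and 0.13 on the siRNA 2600 arrays, against -0.06 to 0.03 on the controls. The beta-actin and hexokinase ratios and the spike-ins were highest on the siRNA 3488 arrays, and their part in the siRNA 3488 results given next was not tested.

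With siRNA 3488, 16 of the 118 probe sets fell and 2 rose, at a limma adjusted p under 0.05 over all 18625 probe sets tested. The 16 were 13.6% of the members, and 8.74% of all tested probe sets fell; the 2 were 1.69%, and 6.89% of all tested probe sets rose. In either direction 15.6% of all tested probe sets were called. An unadjusted limma p under 0.05 occurred at 32 of the 118 members and at 5934 of all 18625 tested probe sets. Erasers gave 7 that fell and none that rose among 47, with 11 under an unadjusted p of 0.05 in either direction. Writers gave 7 that fell and 2 that rose among 67. Mysm1 and Taf1 account for the other 2, and without them 14 of 114 probe sets fell (12.3%). The median log2 change was -0.11 for the members, -0.09 for writers and -0.11 for erasers, against -0.06 for all tested probe sets. Both siRNA 3488 arrays lay below all 3 controls at 42 of the 118 probe sets (35.6%, where 31.1% of all tested probe sets did) and above them at 7 (5.93%, where 19.2% did). These values varied with the scaling. Centring each array on its median gave members a median of -0.02 and writers 0.01, against 0.03 for all tested probe sets. It called 3 lower (2.54%, where 3.09% of all tested probe sets fell) and 2 higher. Quantile normalization called 9 lower (7.63%, against 5.3%) and 2 higher, and cyclic loess 10 lower (8.47%, against 4.79%) and 2 higher. Over all tested probe sets, centring, quantile and loess scaling called 1728, 852 and 957 higher. Without the intensity trend 2 members were called, and 591 instead of 2911 of all tested probe sets. Most calls were lost without siRNA 3488 replicate 2, among the members and among all tested probe sets. Without scrambled control replicates 1, 2 and 3 the count of 18 members was 4, 8 and 10. Over all tested probe sets 980, 1335 and 1748 were then called.

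With siRNA 2600, 3 of the 118 probe sets fell (2.54%, where 0.483% of all tested probe sets fell) and none rose (where 0.548% rose). Of all tested probe sets 1.03% were called either way. An unadjusted limma p under 0.05 occurred at 20 of the 118 members and at 2831 of all 18625 tested probe sets. The 3 were Mysm1, Taf1 and Sirt6. Mysm1 and Taf1 were made members because earlier results of these arrays had shown them, so their calls follow from that choice, and without them 1 of 114 probe sets fell (0.877%). The members' median log2 change was -0.02, the same to 2 decimals as that of all tested probe sets. After median centring both medians were 0.06, and 0 members and 205 of all tested probe sets were called. Both siRNA 2600 arrays lay below all controls at 23 members (19.5%, where 19.6% of all tested probe sets did) and above them at 17 (14.4%, where 14.4% did). Without siRNA 2600 replicate 2, or without any 1 of the 3 scrambled controls, no member was called. Of all tested probe sets, 37, 25 and 33 were still called without scrambled control replicates 1, 2 and 3. With the 4 siRNA arrays taken as 1 group against the controls, Mysm1 and Taf1 alone were called among the members, both lower. Without these chosen genes 0 of 114 were called. They were 1.69% of the members, and nothing is read from that share. Of all tested probe sets 0.043% fell, 0.102% rose and 0.145% were called either way. In that comparison 22 of the 118 members had an unadjusted limma p under 0.05, as did 3310 of all 18625 tested probe sets. All 4 siRNA arrays lay below all 3 controls at 17 members (14.4%, where 11% of all tested probe sets did) and above them at 3 (2.54%, where 6.66% did). Leaving out siRNA 2600 replicate 1 gave 9 calls in that comparison, all lower, and leaving out any other array gave 0. Over all tested probe sets 1304 were called without siRNA 2600 replicate 1. Without siRNA 3488 replicate 2 it was 1, and without each other array 0, so the member counts moved with those of all probe sets.

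**Figure D1:**
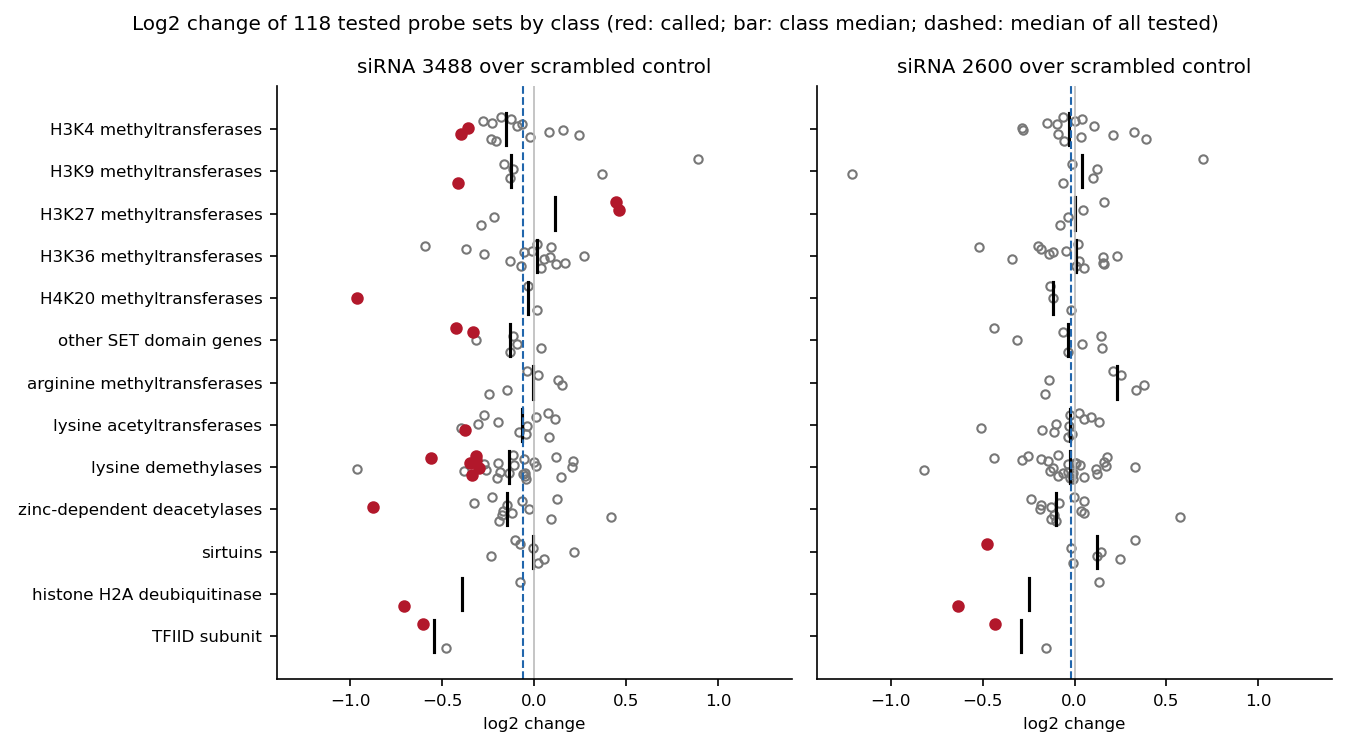
Log2 change of each of the 118 tested probe sets (horizontal axis) by enzyme class (rows), for siRNA 3488 over scrambled control (left) and siRNA 2600 over scrambled control (right). Red points were called, open points were not, the black bar is the class median and the dashed line is the median of all tested probe sets (-0.06 left, -0.02 right). The 6 red points among the lysine demethylases all lie below 0, and the 2 red points above 0 are both Ezh2.

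Brightness bears on how many calls a set of probe sets can give. The tested probe sets were split into 4 bins of equal size by mean signal, and members were counted without Mysm1 and Taf1. In the second brightest bin, 6 of 36 members fell with siRNA 3488 (16.7%, against 13% of all probe sets in that bin). In the brightest, 5 of 29 fell (17.2%, against 9.23%). In that bin none of the 29 members rose, where 911 of all 4657 probe sets (19.6%) rose, and the members' median log2 change there was -0.07, against 0.03 for all. The bin spanned mean log2 signals of 10.1 to 14.7, and members were not matched for brightness within it. The 98th percentile of signal was 6076 and 6429 on siRNA 3488 arrays and 5640 and 5756 on siRNA 2600 arrays, against 5336 to 5537 on controls. The bins were counted on the signals as deposited only. In the second dimmest bin 2 of 32 members fell (6.25%, against 8.87%), and in the dimmest, which held few members, 1 of 17 (5.88%, against 3.84%). No test was made of these differences in share.

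**Figure D2:**
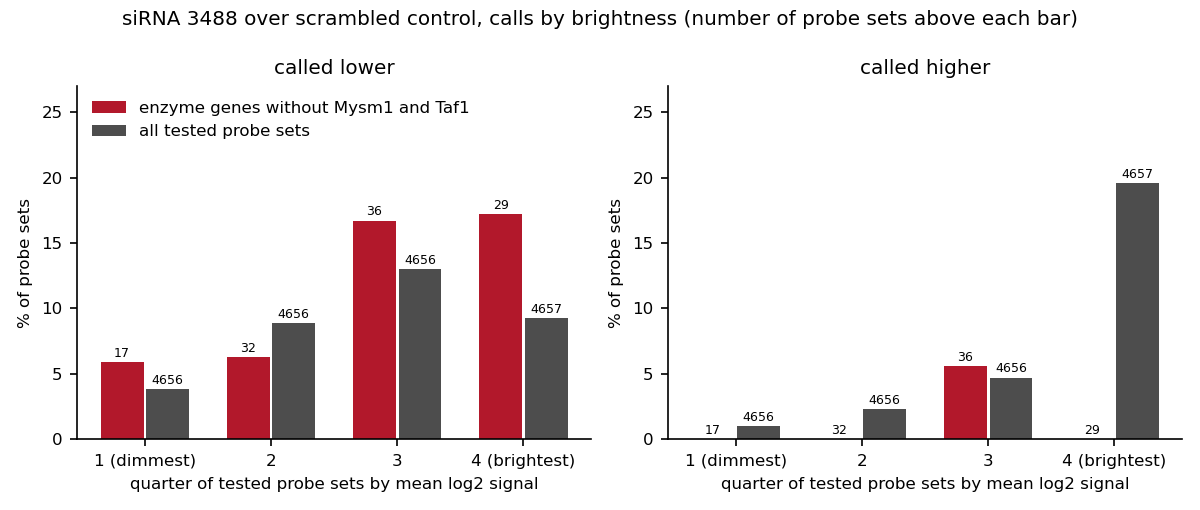
Percent of probe sets called lower (left) and higher (right) with siRNA 3488, in 4 bins of the tested probe sets from dimmest to brightest. Red bars are the histone-modifying enzyme genes without Mysm1 and Taf1, grey bars all tested probe sets, and the number over each bar counts its probe sets. In the brightest bin the grey bar for higher calls reaches 19.6% while the members have 0 of 29, which were not matched for brightness within the bin.

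Mysm1 and Taf1 were added to the enzyme families because earlier results of these arrays had shown both, so their levels are given as a description. Mysm1 probe set 1379251_at had signals of 500.3 and 467 on siRNA 3488 arrays and 570.2 and 455 on siRNA 2600 arrays, against 775, 806 and 787 on controls. All 4 siRNA arrays lay below all 3 controls, and the log2 change was -0.71 with siRNA 3488 and -0.63 with siRNA 2600. The other Mysm1 probe set, 1394511_at, did not share this pattern, with signals of 325 and 276 on siRNA 3488 arrays and 348 and 346 on siRNA 2600 arrays, against 319.9, 327 and 303 on controls, and log2 changes of -0.08 and 0.13. For Taf1, probe set 1392792_at had signals of 778 and 737 on siRNA 3488 arrays and 861 and 849 on siRNA 2600 arrays, against 1187, 1136 and 1134 on controls. Again no siRNA array reached the lowest control, at log2 changes of -0.60 with siRNA 3488 and -0.43 with siRNA 2600. Its second probe set, 1377224_at, had 245 and 242 on siRNA 3488 arrays and 351 and 267 on siRNA 2600 arrays, against 366, 353 and 304 on controls. There the siRNA 3488 arrays lay below the controls and the siRNA 2600 arrays overlapped them, with log2 changes of -0.48 and -0.15.

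**Figure D3:**
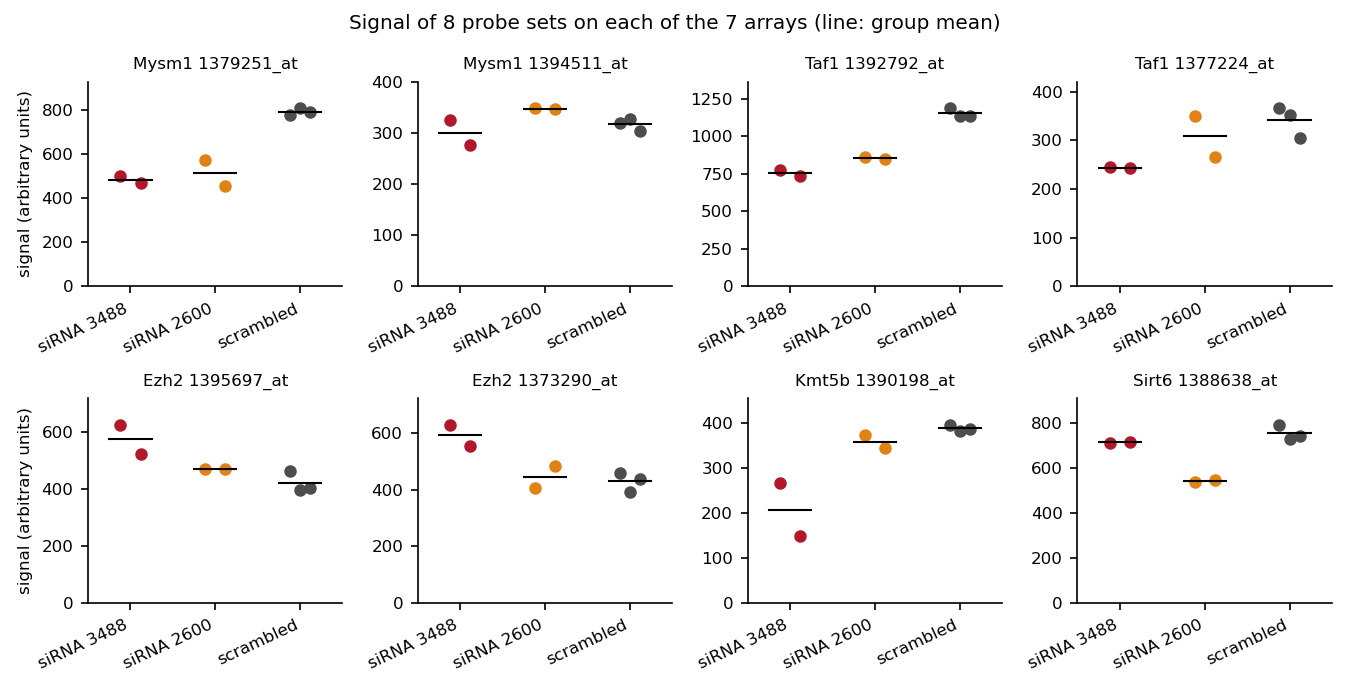
Signal (vertical axis, arbitrary units, from 0) of 8 probe sets on each array, with siRNA 3488 left, siRNA 2600 in the middle and the scrambled control right; each point is 1 array and each line a group mean. Mysm1 1379251_at and Taf1 1392792_at are below the controls on all 4 siRNA arrays, both Ezh2 probe sets are above them with siRNA 3488, and Sirt6 is below them by a clear gap with siRNA 2600.

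Kmt2 and Setd1 genes were classed by name as methyltransferases of lysine 4 of histone H3. Among them, 2 of 14 probe sets fell with siRNA 3488 (14.3%, where 8.74% of all tested probe sets fell) and none rose (where 6.89% did). Kmt2e gave 5 of the 14, and whether it methylates lysine 4 itself was not examined. In classes this small, 1 call moves the share by several percent, and nothing is read from it. Kmt2e, a Kmt2 family member with a SET domain and a PHD finger, had signals at 1372274_at of 1508 and 1457 on siRNA 3488 arrays and 1629 and 1498 on siRNA 2600 arrays, against 1969.8, 1822 and 1926 on controls. All 4 siRNA arrays were below the controls, and the level fell by 0.36 ± 0.071 on the log2 scale (SE; limma adjusted p = 0.0103) with siRNA 3488. With siRNA 2600 the change was -0.29 ± 0.071 (SE; limma adjusted p = 0.0979), which missed the threshold. The brightest probe set of the class, also of Kmt2e (1384125_at), had signals of 4846 and 4529 with siRNA 3488 against 4868, 5187 and 4699.7 in the controls, which overlapped, and a change of -0.07 ± 0.072 (SE; limma adjusted p = 0.547). Kmt2c, which methylates lysine 4 at enhancers, had signals at 1382001_at of 984 and 908 on siRNA 3488 arrays and 1253 and 1092 on siRNA 2600 arrays, against 1284, 1178 and 1279 on controls. Both siRNA 3488 arrays lay below every other array, and the level fell by 0.40 ± 0.086 on the log2 scale (SE; limma adjusted p = 0.0145). Its other probe set, 1382658_at, gave 0.08 ± 0.13 (SE; limma adjusted p = 0.717). Both calls were lost after median centring and without the intensity trend. They were also lost without siRNA 3488 replicate 2 and without scrambled control replicate 1. The adjusted p was then 0.0508 to 0.0784 for Kmt2e and 0.0635 to 0.115 for Kmt2c.

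Ezh2, the catalytic subunit of Polycomb repressive complex 2, was the only member gene that rose, and it rose at both of its tested probe sets (another was too dim to test). Probe set 1373290_at had signals of 629.7 and 554 on siRNA 3488 arrays and 404 and 484 on siRNA 2600 arrays, against 459, 392 and 438 on controls. Both siRNA 3488 arrays were above all 5 others, and the level rose by 0.46 ± 0.12 on the log2 scale (SE; limma adjusted p = 0.0307). Probe set 1395697_at, with signals of 627 and 523 on siRNA 3488 arrays and 470.1 and 472 on siRNA 2600 arrays, against 463, 398 and 405 on controls, likewise rose by 0.44 ± 0.12 on the log2 scale (SE; limma adjusted p = 0.0298). With siRNA 2600 the changes were 0.05 ± 0.12 (SE; limma adjusted p = 0.901) and 0.16 ± 0.12 (SE; limma adjusted p = 0.564). The difference between the siRNAs was 0.42 ± 0.13 (SE; limma adjusted p = 0.0939) at the first probe set and 0.28 ± 0.13 (SE; limma adjusted p = 0.212) at the second, and neither passed the threshold. Both Ezh2 calls were lost without any 1 siRNA 3488 or control array, and held without either siRNA 2600 array. The adjusted p of the lost calls was 0.0631 to 0.145 at the first probe set and 0.0508 to 0.159 at the second. Both calls were kept under the quantile, centring and loess scalings. Both were lost without the intensity trend (adjusted p of 0.0727 and 0.0684). Ezh1, the other catalytic subunit of the complex, gave values on the other side of 0. They were -0.22 ± 0.079 (SE; limma adjusted p = 0.0887) at 1399059_at, the brightest of the class, and -0.29 ± 0.14 (SE; limma adjusted p = 0.195) at 1384890_at. On 1399059_at the signals were 777 and 824 on siRNA 3488 arrays and 870.3 and 947 on siRNA 2600 arrays, against 909.9, 936 and 946 on controls, with both siRNA 3488 arrays below the controls.

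Of the 6 probe sets for enzymes that methylate lysine 9 of histone H3, 1 fell with siRNA 3488 (16.7%, where 8.74% of all tested probe sets fell). It was that of Ehmt1, which works as a dimer with Ehmt2, and it fell by 0.41 ± 0.11 on the log2 scale (SE; limma adjusted p = 0.0264). Its signals at 1376578_at were 801 and 777 on siRNA 3488 arrays and 1067 and 949 on siRNA 2600 arrays, against 1196, 1030.0 and 944 on controls. The siRNA 3488 arrays lay below the other 5, while the siRNA 2600 arrays lay within the range of the controls. The call was lost without any 1 of siRNA 3488 replicates 1 and 2 and scrambled control replicates 1 and 2 (adjusted p of 0.0687 to 0.148) and under quantile, median and loess scaling. Its partner Ehmt2 had a change of -0.13 ± 0.10 (SE; limma adjusted p = 0.402). Setdb1 1382141_at, the brightest of the class, had signals of 1325 and 1388 on siRNA 3488 arrays and 1512 and 1704 on siRNA 2600 arrays, against 1456, 1461 and 1500.4 on controls. Its change was -0.12 ± 0.074 (SE; limma adjusted p = 0.302). The second Setdb1 probe set, 1378353_at, had the lowest log2 change of the 118 with siRNA 2600, -1.21 ± 0.47 (SE; limma adjusted p = 0.259). It was dim, at 122 and 168 on siRNA 3488 arrays and 90.6 and 25.6 on siRNA 2600 arrays, against 82.7, 119 and 140.1 on controls, and the siRNA 2600 arrays overlapped the controls. Suv39h2, which trimethylates lysine 9 in heterochromatin, had the highest log2 change of the 118 with siRNA 3488, 0.89 ± 0.37 (SE; limma adjusted p = 0.128). Its signals were 128 and 87.9 on siRNA 3488 arrays and 121 and 71.4 on siRNA 2600 arrays, against 41.1, 78.5 and 58.2 on controls. These were dim and spread widely within groups, and the value did not pass the threshold.

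No probe set of the enzymes that methylate lysine 36 of histone H3 was called against the controls with either siRNA, among 15 from Nsd1, Nsd2, Nsd3 and Setd2. With siRNA 3488, 4 of the 15 had an unadjusted limma p under 0.05, as did 5934 of all 18625 tested probe sets. The brightest, Nsd1 1398956_at, had signals of 1476 and 1859 on siRNA 3488 arrays and 1703 and 1715 on siRNA 2600 arrays, against 1367, 1541 and 1688 on controls, overlapping throughout. Nsd3 was read by 6 probe sets, whose changes with siRNA 3488 ran from -0.60 to 0.09. Of the 3 enzymes for lysine 20 of histone H4, Kmt5b fell by 0.97 ± 0.21 on the log2 scale (SE; limma adjusted p = 0.0139) with siRNA 3488. Its signals at 1390198_at were 266 and 148 on siRNA 3488 arrays and 373 and 343 on siRNA 2600 arrays, against 396, 382 and 385 on controls. The siRNA 3488 arrays differed from each other by more than the other 5 arrays did, and both lay below all 5. The difference between the siRNAs was -0.85 ± 0.23 (SE; limma adjusted p = 0.0538). Kmt5b was called under the 3 other scalings, and the call was lost without any 1 of siRNA 3488 replicate 2 and scrambled control replicate 1 (adjusted p of 0.0552 to 0.0698). The size of the change rested on replicate 2, without which it was -0.54. Kmt5a, which places the first methyl group on this lysine, had a change of 0.01 ± 0.10 (SE; limma adjusted p = 0.945), and Kmt5c, which acts alongside Kmt5b, one of -0.03 ± 0.13 (SE; limma adjusted p = 0.886).

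Among the remaining SET domain genes, 2 of 7 probe sets fell with siRNA 3488 (28.6%, where 8.74% of all tested probe sets fell). Setd6, which methylates non-histone proteins such as the NF-kappaB subunit RelA, had signals at 1382117_at of 396 and 428 on siRNA 3488 arrays and 399 and 417 on siRNA 2600 arrays, against 575, 571 and 515 on controls. All 4 siRNA arrays were below the controls. The level fell by 0.43 ± 0.10 on the log2 scale (SE; limma adjusted p = 0.022) with siRNA 3488, and the change with siRNA 2600 was -0.44 ± 0.10 (SE; limma adjusted p = 0.0842). Setd5, a chromatin regulator with a SET domain, fell by 0.33 ± 0.087 on the log2 scale (SE; limma adjusted p = 0.0292) at 1399070_at. Its signals there were 1012 and 848 on siRNA 3488 arrays, against 1133, 1173 and 1194 on controls. The brightest probe set of the class, Setd5 1378705_at, gave -0.32 ± 0.15 (SE; limma adjusted p = 0.178). Neither call was kept under quantile, median or loess scaling. The Setd6 call was also lost without any 1 of siRNA 3488 replicates 1 and 2 and scrambled control replicates 1 and 2 (adjusted p of 0.0776 to 0.0888). That of Setd5 was lost without any 1 of siRNA 3488 replicate 2 and scrambled control replicates 1, 2 and 3 (adjusted p of 0.0739 to 0.216).

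The 6 tested arginine methyltransferase genes, each read by 1 probe set, had no call with either siRNA, and 1 had an unadjusted p under 0.05 with each. With siRNA 2600, 4 of the 6 had both arrays above all controls (66.7%, where 14.4% of all tested probe sets did), and the class median was 0.23, or 0.26 and 0.32 under quantile and median scaling. Prmt5, the main enzyme of symmetric arginine dimethylation, had signals of 844 and 967 on siRNA 3488 arrays and 1078 and 1040.4 on siRNA 2600 arrays, against 833, 709.8 and 914 on controls. Its change with siRNA 2600 was 0.38 ± 0.11 (SE; limma adjusted p = 0.141). Prmt2, the brightest, lay on the other side with -0.16 ± 0.08 (SE; limma adjusted p = 0.378), and with siRNA 3488 gave -0.25 ± 0.08 (SE; limma adjusted p = 0.0611). With siRNA 3488 the class median was -0.01, and 0.08 and 0.09 under the same 2 scalings.

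Of the 12 lysine acetyltransferase probe sets, 1 fell with siRNA 3488 (8.33%, where 8.74% of all tested probe sets fell) and none rose. It was Kat2b, or PCAF, a histone H3 acetyltransferase and coactivator, and it was also the brightest of the class. At 1375205_at its signals were 2055 and 2050.0 on siRNA 3488 arrays and 2483 and 2239 on siRNA 2600 arrays, against 2545, 2842 and 2610.4 on controls. The siRNA 3488 arrays were the lowest 2 of the 7, and the siRNA 2600 arrays lay between them and the controls. With siRNA 3488 the level fell by 0.38 ± 0.073 on the log2 scale (SE; limma adjusted p = 0.0104). The other Kat2b probe set, 1393762_at, gave -0.40 ± 0.20 (SE; limma adjusted p = 0.205). Its signals were 160.1 and 237 on siRNA 3488 arrays, against 278, 224 and 274 on controls. The Kat2b call was lost without siRNA 3488 replicate 2 (adjusted p = 0.0693) and after median centring. Kat6a 1378112_at, of the MOZ family, had a change of -0.31 ± 0.12 (SE; limma adjusted p = 0.115). Kat5, or Tip60, had -0.04 ± 0.084 (SE; limma adjusted p = 0.77) and Kat7, a histone H3 and H4 acetyltransferase, 0.07 ± 0.082 (SE; limma adjusted p = 0.585).

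The lysine demethylases gave 6 of the 7 calls among the erasers with siRNA 3488: 6 of 27 probe sets fell (22.2%, where 8.74% of all tested probe sets fell) and none rose (where 6.89% did). The share that fell was 7.41% under quantile normalization, where 5.3% of all tested probe sets fell, and 0 after median centring, where 3.09% did. Kdm2a, a demethylase of lysine 36 that binds unmethylated CpG islands, had signals at 1399154_at of 1586 and 1493 on siRNA 3488 arrays and 1976 and 1879.8 on siRNA 2600 arrays, against 1869, 1945 and 2026 on controls. The siRNA 3488 arrays were below the other 5, which overlapped, and the level fell by 0.34 ± 0.069 on the log2 scale (SE; limma adjusted p = 0.0116). Kdm5 enzymes, which remove methyl groups from lysine 4, made up 4 of the 6. Kdm5a 1373867_at, the brightest demethylase probe set, had signals of 3489 and 3290.5 on siRNA 3488 arrays and 4009 and 3691 on siRNA 2600 arrays, against 4080.5, 4097 and 4328 on controls. It fell by 0.30 ± 0.065 on the log2 scale (SE; limma adjusted p = 0.015). Kdm5b 1377863_at had signals of 608 and 548 on siRNA 3488 arrays and 776 and 706 on siRNA 2600 arrays, against 762, 765 and 681 on controls. The siRNA 2600 arrays overlapped the controls, and with siRNA 3488 the level fell by 0.35 ± 0.10 on the log2 scale (SE; limma adjusted p = 0.0362). The family member Kdm5c fell at 2 of 3 probe sets. It fell by 0.32 ± 0.09 on the log2 scale (SE; limma adjusted p = 0.0391) at 1393019_at and by 0.56 ± 0.17 on the log2 scale (SE; limma adjusted p = 0.0461) at 1393199_at. At 1393019_at its signals were 565 and 537 on siRNA 3488 arrays and 590.1 and 536 on siRNA 2600 arrays, against 709, 674 and 679 on controls. All 4 siRNA arrays were below the controls. Kdm7a, which removes methyl groups from lysines 9 and 27, fell by 0.32 ± 0.089 on the log2 scale (SE; limma adjusted p = 0.0392). Its signals were 759.6 and 703 on siRNA 3488 arrays and 821 and 709 on siRNA 2600 arrays, against 931, 903 and 897 on controls, again with all 4 siRNA arrays below.

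**Figure D4:**
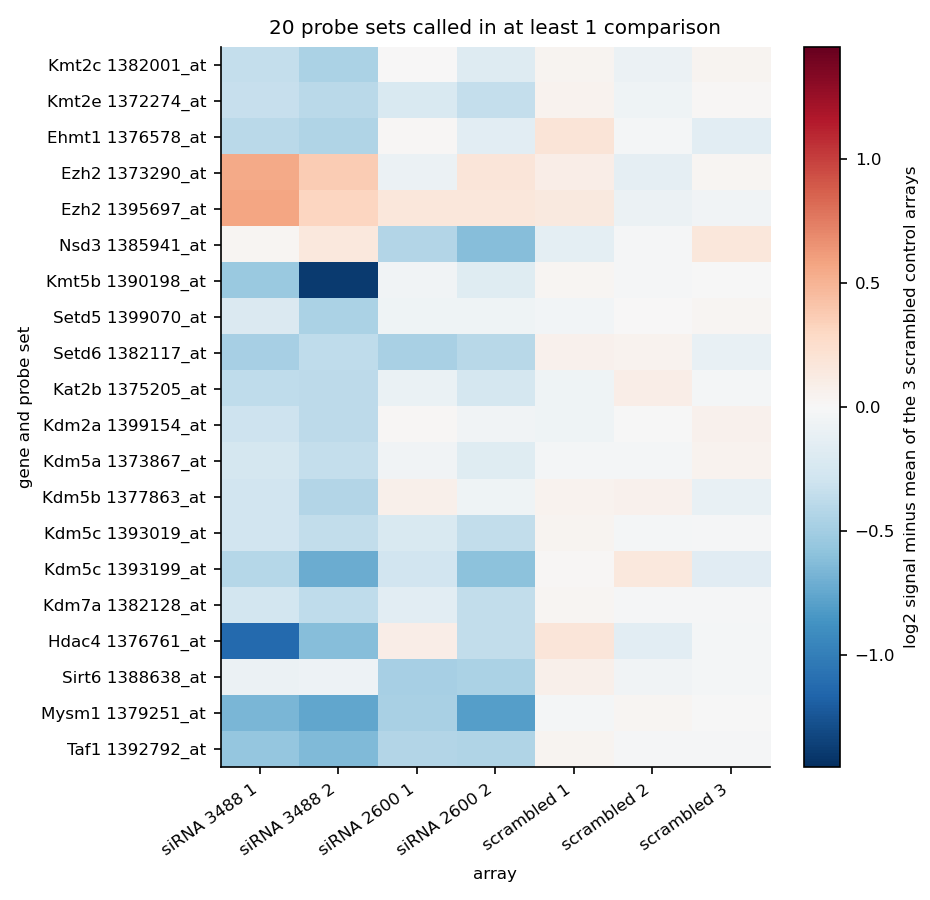
Colour map of the 20 probe sets called in at least 1 comparison (rows) on the 7 arrays (columns, siRNA 3488, siRNA 2600, then scrambled control); colour is log2 signal minus the mean of the 3 scrambled control arrays, blue for lower and red for higher. Kmt5b on siRNA 3488 replicate 2 is the darkest cell, and Mysm1 and Taf1 are blue on all 4 siRNA arrays.

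Each demethylase call was lost without siRNA 3488 replicate 2. That of Kdm2a was kept without each other array, and was lost without siRNA 3488 replicate 2 (adjusted p = 0.0907), after median centring (0.0939) and without the intensity trend (0.0618). The call of Kdm5a was also lost without scrambled control replicates 1 or 3, and that of Kdm5b without scrambled control replicates 1 or 2. Those of Kdm5c and Kdm7a were lost without any 1 of the 3 controls, and those of Kdm5c 1393019_at and Kdm7a without siRNA 3488 replicate 1 as well. The adjusted p of these lost calls was 0.0513 to 0.105 for Kdm5a, 0.118 to 0.217 for Kdm5b, 0.0584 to 0.261 for Kdm5c and 0.0611 to 0.216 for Kdm7a. The calls of Kdm5b, Kdm5c and Kdm7a were also lost under quantile, median and loess scaling and without the filter. That of Kdm5a was lost after median centring, and all of them without the intensity trend. Demethylases of other marks and types were not called. Kdm1a, the flavin-dependent lysine 4 demethylase, had a change of -0.05 ± 0.072 (SE; limma adjusted p = 0.702). Kdm6b, which acts on lysine 27, had 0.12 ± 0.082 (SE; limma adjusted p = 0.362). Kdm4c had the lowest value of the demethylases, -0.96 ± 0.35 (SE; limma adjusted p = 0.0878). Its signals were dim, at 60.4 and 32.3 on siRNA 3488 arrays and 74.8 and 117 on siRNA 2600 arrays, against 81.5, 83.9 and 93.1 on controls.

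Among the zinc-dependent deacetylases, 1 of 13 probe sets fell with siRNA 3488 (7.69%, where 8.74% of all tested probe sets fell) and none rose. Hdac1 1396820_at, the brightest of the class, had signals of 3819.7 and 4254 on siRNA 3488 arrays and 3226 and 3721 on siRNA 2600 arrays, against 3784, 3847 and 3715 on controls. Its change was 0.09 ± 0.077 (SE; limma adjusted p = 0.443). Its second probe set, 1388761_at, had 2323 and 2459 on siRNA 3488 arrays, against 2621, 2878 and 2707 on controls, and a change of -0.19 ± 0.066 (SE; limma adjusted p = 0.0719). Hdac2, its partner in the Sin3, NuRD and CoREST complexes, had -0.17 ± 0.076 (SE; limma adjusted p = 0.153). The probe set that fell was that of Hdac4, a class IIa deacetylase that shuttles between nucleus and cytoplasm. Its signals at 1376761_at were low, 69.5 and 98.7 on siRNA 3488 arrays and 163 and 119 on siRNA 2600 arrays, against 172, 137 and 149 on controls. It fell by 0.87 ± 0.24 on the log2 scale (SE; limma adjusted p = 0.037). Both siRNA 3488 arrays were below the other 5, and the call was lost without any 1 of siRNA 3488 replicates 1 and 2 and scrambled control replicates 1, 2 and 3 (adjusted p of 0.066 to 0.163) and under quantile, median and loess scaling.

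Of the sirtuins, the NAD-dependent deacetylases, none of 7 probe sets was called with siRNA 3488 or had an unadjusted p under 0.05, and Sirt6 fell with siRNA 2600. Sirt6, a nuclear deacetylase of histone H3 at lysines 9 and 56, had signals at 1388638_at of 714 and 718 on siRNA 3488 arrays and 540.0 and 548 on siRNA 2600 arrays, against 794, 731 and 743 on controls. The siRNA 2600 arrays were the lowest 2 by a clear gap, and the siRNA 3488 arrays lay just below the controls. With siRNA 2600 the level fell by 0.47 ± 0.083 on the log2 scale (SE; limma adjusted p = 0.0313), and with siRNA 3488 the change was -0.08 ± 0.083 (SE; limma adjusted p = 0.558). The siRNA 2600 call was lost without any 1 of siRNA 2600 replicates 1 and 2 and scrambled control replicates 1, 2 and 3 (adjusted p of 0.0657 to 0.128) and after median centring. Sirt2, the brightest, had signals of 1785 and 1971 on siRNA 3488 arrays and 1906 and 1772 on siRNA 2600 arrays, against 1769.6, 1909.7 and 1878 on controls, overlapping throughout. With siRNA 2600, Sirt3, the main mitochondrial deacetylase, had a change of 0.25 ± 0.10 (SE; limma adjusted p = 0.265) and Sirt7, a nucleolar one, 0.33 ± 0.14 (SE; limma adjusted p = 0.304).

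Set directly against each other, the 2 siRNAs differed at 3 of the 118 probe sets. With siRNA 3488, 2 were higher (1.69%, where 2.84% of all tested probe sets were) and 1 was lower (0.847%, where 3.17% were). In either direction 6.01% of all tested probe sets were called. Sirt6 was higher with siRNA 3488 by 0.40 ± 0.091 on the log2 scale (SE; limma adjusted p = 0.0366), with a 95% confidence interval of 0.19 to 0.60. Nsd3 1385941_at was higher by 0.61 ± 0.15 on the log2 scale (SE; limma adjusted p = 0.0431), with an interval of 0.28 to 0.95. Its signals were 347 and 378 on siRNA 3488 arrays and 254 and 221 on siRNA 2600 arrays, against 308, 336 and 381 on controls, so that the siRNA 2600 arrays were the lowest of the 7. The other 5 Nsd3 probe sets had differences of -0.40 to 0.06, and none was called. Kdm2a 1399154_at was lower with siRNA 3488, by 0.32 ± 0.075 on the log2 scale (SE; limma adjusted p = 0.0369), with an interval of -0.49 to -0.16. The Sirt6 and Nsd3 calls were lost when any 1 of the 7 arrays was left out, and that of Kdm2a without any 1 of siRNA 3488 replicate 2, siRNA 2600 replicate 1 and the controls. The adjusted p was then 0.0501 to 0.141 for Sirt6, 0.0611 to 0.188 for Nsd3 and 0.0608 to 0.165 for Kdm2a. Of the 16 member probe sets that fell with siRNA 3488, Kdm2a was the only one whose difference from siRNA 2600 passed the threshold. The other 15 missed it, with unadjusted 95% intervals of the difference such as -1.35 to -0.35 for Kmt5b 1390198_at and -0.38 to -0.02 for Kat2b 1375205_at. Both siRNA 3488 arrays lay below both siRNA 2600 arrays at 47 members (39.8%, where 27.7% of all tested probe sets did) and above them at 12 (10.2%, where 21.9% did). Both siRNAs were set against the same 3 control arrays, so their 2 sets of changes are not independent of each other.

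Several genes were read more than once, and the readings often differed. Of 27 genes with 2 or more tested probe sets, 11 had a call with siRNA 3488, and Ezh2 alone had every tested probe set called. In 4 genes, Kdm2a, Kdm5a, Kdm5b and Kmt2c, 1 probe set fell while another had a change above 0, none of them called. The highest of these was 0.14 at Kdm2a 1384489_at, 0.21 at Kdm5a 1376299_at, 0.21 at Kdm5b 1383082_at and 0.08 at Kmt2c 1382658_at. With siRNA 3488 the widest range between probe sets of 1 gene was 0.69 on the log2 scale. Probe sets lay further apart with siRNA 2600, where the 2 of Setdb1 had changes of -1.21, at a dim probe set, and 0.12. Which transcript ends or isoforms each probe set reads is not given in the sources used here, and the disagreement was not tested.

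**Figure D5:**
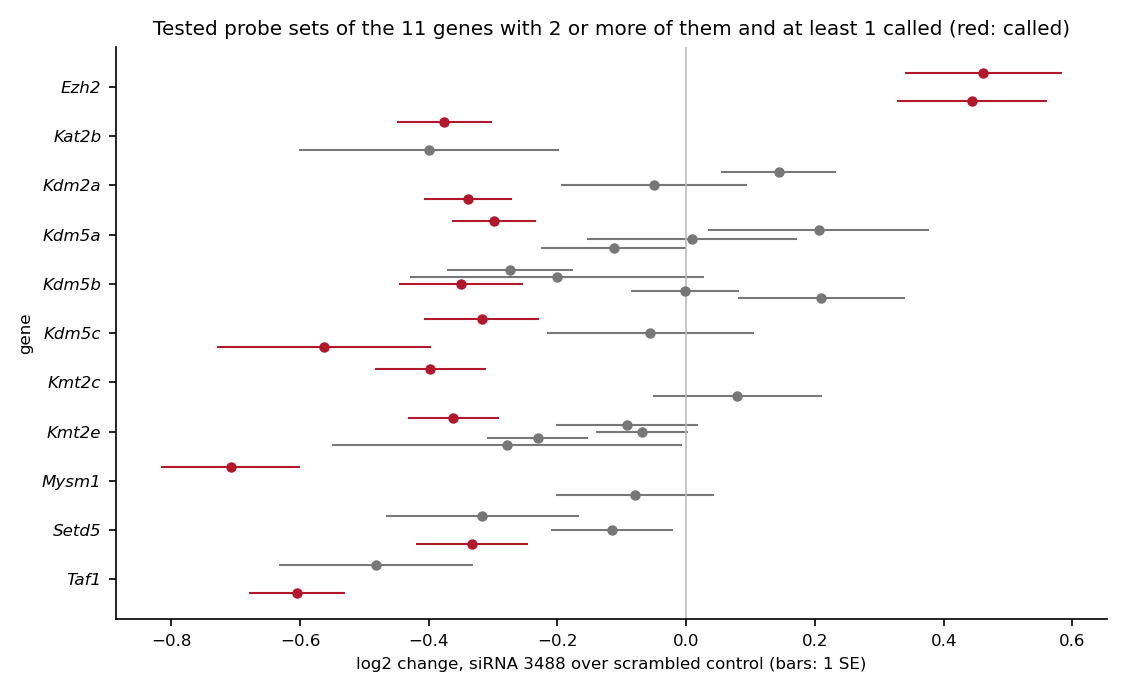
Log2 change with siRNA 3488 over scrambled control (horizontal axis, bars 1 SE) for every tested probe set of the 11 genes that had 2 or more of them and at least 1 called; red points were called. Both Ezh2 points lie above 0, while Kdm2a, Kdm5a, Kdm5b and Kmt2c each have points on both sides of 0.

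Genes that work with these enzymes were taken from lists of 138 partners and related enzymes, of which 119 were tested at their brightest probe set. With siRNA 3488, 13 of them rose (10.9%, where 6.89% of all tested probe sets rose) and 14 fell (11.8%, where 8.74% fell), with a median of -0.01. With siRNA 2600, 1 rose (0.84%, where 0.548% of all tested probe sets rose) and none fell (where 0.483% did). The 2 siRNAs differed at 6. With siRNA 3488, 2 of the 6 were higher (1.68%, where 2.84% of all tested probe sets were) and 4 lower (3.36%, where 3.17% were). Among 18 Polycomb partners of Ezh2, 1 rose (5.56%) and 3 fell (16.7%) with siRNA 3488 over the controls. Cbx7, which reads methylated lysine 27, fell by 1.10 ± 0.13 on the log2 scale (SE; limma adjusted p = 0.00206). Its signals were 184 and 218 on siRNA 3488 arrays and 448 and 373 on siRNA 2600 arrays, against 428, 435 and 428 on controls. It also differed between the siRNAs, by -1.03 ± 0.14 (SE; limma adjusted p = 0.00956). Of 14 histone ubiquitin enzymes, 1 rose (7.14%) and 3 fell (21.4%). Brcc3, a deubiquitinase of the same metalloprotease kind as Mysm1, fell by 0.82 ± 0.086 on the log2 scale (SE; limma adjusted p = 0.0017) with siRNA 3488. Its signals were 648 and 592 on siRNA 3488 arrays and 1137 and 1092 on siRNA 2600 arrays, against 1135, 1011 and 1136 on controls. The siRNA 2600 arrays overlapped the controls, and the difference between the siRNAs was -0.85 ± 0.094 (SE; limma adjusted p = 0.00464).

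Of 20 other methyltransferases and demethylases, 1 rose (5%) and 5 fell (25%) with siRNA 3488. The 1 that rose was Carm1, an arginine methyltransferase outside the Prmt names, by 1.39 ± 0.23 on the log2 scale (SE; limma adjusted p = 0.00645). Its signals were 683 and 697 on siRNA 3488 arrays and 288 and 552 on siRNA 2600 arrays, against 229, 312 and 254 on controls. Its siRNA 2600 arrays spread widely, 1 within and 1 above the range of the controls. Of 19 acetyltransferases and partners, 1 rose and 1 fell (5.26% each). Hat1, which acetylates newly made histone H4, rose with both siRNAs, by 0.40 ± 0.064 on the log2 scale (SE; limma adjusted p = 0.00553) with siRNA 3488 and by 0.32 ± 0.064 on the log2 scale (SE; limma adjusted p = 0.0464) with siRNA 2600. Its signals were 2601 and 2666 on siRNA 3488 arrays and 2447 and 2545 on siRNA 2600 arrays, against 2026, 2054 and 1913 on controls. Rcor1, the CoREST subunit that holds Kdm1a and Hdac1 together, differed between the siRNAs by -0.69 ± 0.14 (SE; limma adjusted p = 0.0235), and Ing4, a subunit of Kat7 complexes, by 0.37 ± 0.09 (SE; limma adjusted p = 0.0426). Among 16 histone kinases and other TFIID subunits, 6 rose with siRNA 3488 (37.5%) and none fell, with a median of 0.26. Of all tested probe sets 6.89% rose, of the brightest bin 19.6% and of the second brightest bin 4.7%. The 16 were not matched for brightness. The names of the 6 that rose were looked up after the count was seen. They were the kinases Aurka, Aurkb, Bub1 and Vrk1, with log2 changes of 0.50, 0.56, 0.48 and 0.51, and the TFIID subunits Taf9 and Taf13, with 0.45 and 0.42. Beside these, 3 of 7 fibroblast markers rose with siRNA 3488 (42.9%, where 6.89% of all tested probe sets and 19.6% of the brightest bin rose). The fibroblast signal summed over all 12 was 49947 and 57548 on the siRNA 3488 arrays and 42284 and 44651 on the siRNA 2600 arrays, against 39351 to 41609 on the controls. The sum over the 21 epithelial markers was 15271 and 14847 on the siRNA 3488 arrays, both above the controls (13679 to 14697). On the siRNA 2600 arrays it was 13966 and 13763, within their range. None of the 8 tested epithelial markers was called with siRNA 3488, and their median log2 change was 0.19. Of 3 tested leukocyte markers, 1 rose with siRNA 3488 (33.3%, where 6.89% of all tested probe sets rose). It was the lysosomal protein Cd68, which rose by 0.67 ± 0.14 on the log2 scale (SE; limma adjusted p = 0.0141). Its signals were 365 and 363 on siRNA 3488 arrays and 192 and 225 on siRNA 2600 arrays, against 208, 236 and 246 on controls. It also differed between the siRNAs, by 0.81 ± 0.16 (SE; limma adjusted p = 0.021). The leukocyte signal summed over all 7 was 6373 to 6703 on the siRNA arrays, against 6110 to 6561 on the controls, and Ptprc, which defines leukocytes, did not pass the filter. The part of these markers in the results was not tested.

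The promoter windows of 3 genes are shown, those called with both siRNAs and the one that rose, which were picked after their values were seen; the Kmt5b window was also looked at and is not shown. Each runs from 250 bases before to 50 after the RefSeq start, on build GRCr8, with matches to the motifs listed next in capitals.
Mysm1, chr5:114942336-114942635, minus strand: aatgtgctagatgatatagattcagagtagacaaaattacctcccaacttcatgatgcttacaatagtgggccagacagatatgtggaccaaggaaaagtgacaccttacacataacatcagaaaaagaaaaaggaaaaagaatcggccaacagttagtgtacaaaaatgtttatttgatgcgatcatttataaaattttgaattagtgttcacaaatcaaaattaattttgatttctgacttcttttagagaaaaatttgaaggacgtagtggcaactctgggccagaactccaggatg
Taf1, chrX:70680727-70681026, plus strand: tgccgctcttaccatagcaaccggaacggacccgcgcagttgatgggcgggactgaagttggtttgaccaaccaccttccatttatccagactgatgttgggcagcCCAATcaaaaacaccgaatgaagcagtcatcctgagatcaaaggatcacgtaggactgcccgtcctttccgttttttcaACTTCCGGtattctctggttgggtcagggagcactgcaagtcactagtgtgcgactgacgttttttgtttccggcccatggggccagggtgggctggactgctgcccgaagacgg
Ezh2, chr4:77687134-77687433, minus strand: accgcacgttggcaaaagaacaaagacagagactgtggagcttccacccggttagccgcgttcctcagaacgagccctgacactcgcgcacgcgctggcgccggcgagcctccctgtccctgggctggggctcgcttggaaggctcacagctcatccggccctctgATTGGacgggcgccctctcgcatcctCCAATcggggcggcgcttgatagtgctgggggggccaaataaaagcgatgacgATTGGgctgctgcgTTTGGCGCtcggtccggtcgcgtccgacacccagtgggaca

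In these windows 5 motifs were searched on both strands, also chosen with the results known. They were E2F (TTTCGCGC, TTTGGCGC, TTTCCCGC or TTTGCCGC), the NF-Y box (CCAAT), ETS (CCGGAAGT), NRF1 (GCGCATGCG) and YY1 (AAGATGGCG). Of the member genes, 60 had a promoter in the table, and the E2F motif was in 5 of them (8.33%, against 2.14% of all 33469 promoters of that length). The NF-Y box was in 28 (46.7%, against 37.5%), ETS in 5 (8.33%, against 3.81%), YY1 in 6 (10%, against 1.73%) and NRF1 in 1 (1.67%, against 1.52%). The Ezh2 window held an E2F motif and 3 NF-Y boxes, the Taf1 window 1 NF-Y box and 1 ETS motif, and the Mysm1 window none of these letters. The 33469 promoters were not limited to the 14217 genes on the array or to expressed genes. The members' shares are thus set against an unlike set, and nothing is read from the differences. A match is a description of the sequence and not a binding site, and no test was made of the shares.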

How the data were processed

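RNA of 7 NRK-52E cultures was hybridised to 1 Affymetrix rat array each. The values the authors deposited are linear signal intensity, which per the submitters' processing notes came from GCOS 1.4, for 31099 probe sets, and gene symbols came from the platform annotation. The median signal per array was 126.1 to 139.6, and the number of arrays limits the precision. Before log2, a floor of 1 was applied to the signals, with no further scaling. After removal of 57 control probe sets, the upper 60% by mean log2 signal was kept (18625 probe sets, mean of at least 6.09). R 4.3.3 with limma 3.58.1 fitted linear models with intensity-trended empirical Bayes variances over 3 groups, or over 2 groups for both siRNAs together, and p-values were Benjamini-Hochberg adjusted over all 18625. Cultures were independent per the labels' design text. The 4 comparisons share arrays. Tested on simulated data, the fits returned the right sign and average size and a low share of false calls, but missed many of the smaller changes, and a first target for recovery was not met. RefSeq promoters were of build GRCr8 and were matched for 60 genes. Among RefSeq genes, 128 of 129 probe sets were found by Entrez identifier. A probe set with several symbols was left out (4 cases).

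The members, the lists of related genes and the markers were chosen with earlier results of these data known. Named were the called members (where over 12 in 1 direction, the 12 of lowest p), all probe sets of Mysm1 and Taf1, the brightest of each class, genes whose probe sets had opposite signs and the 4 called related genes of lowest p per comparison. Other genes, among them Kdm5c, Kdm7a, Hdac4 and the uncalled members given beside the called ones, were chosen after their values were seen. The alternatives were quantile, median and cyclic loess scaling, an offset of 32, no filter, a filter at 40%, no intensity trend, a replicate block, other groupings in the fit, 1 probe set per gene, the members without Mysm1 and Taf1, and leaving out each array. A floor at the filter level was added after seeing the data.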

Additional observations from a re-analysis of the deposited data

Results flagged for a closer look

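In 3 probe sets the change with siRNA 3488 differed from that with siRNA 2600 by a test of the difference itself (limma, adjusted p under 0.05). Nsd3 1385941_at had a difference of 0.61 and Sirt6 1388638_at of 0.40, both higher with siRNA 3488, and Kdm2a 1399154_at had a difference of -0.32, lower with siRNA 3488. The Nsd3 and Sirt6 differences missed the threshold when any 1 of the 7 arrays was left out.

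Among the 4 siRNA arrays, 4 of the 118 probe sets had 1 array far from the other 3, where chance sets apart about 1 group in 20. Nsd2 1386551_at, of a lysine 36 methyltransferase, had a signal of 150.1 on siRNA 3488 replicate 1. Kdm3b 1389000_at, of a lysine 9 demethylase, had 1456 on siRNA 2600 replicate 1. On siRNA 2600 replicate 2, Kdm4b 1391997_at, of another lysine 9 demethylase, had 50.55, and Nsd3 1394868_at had 179.6. None of these 4 probe sets was called in any comparison.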

How the results depend on the processing

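No called member changed direction under any setting run. Quantile normalization gave 11 calls for siRNA 3488 over scrambled control, where 1839 of all tested probe sets were called. Member medians were then -0.0147 for both siRNAs, -0.0405 for siRNA 3488 and -0.0627 for siRNA 3488 over siRNA 2600. Median centring gave 0, 5, 0 and 1 calls for both siRNAs, siRNA 3488, siRNA 2600 and siRNA 3488 over siRNA 2600. Over all tested probe sets it called 66, 2304, 205 and 727. The member medians were 0.0264, -0.0152 and 0.063 in the first 3. Cyclic loess gave medians of -0.00553 for both siRNAs, -0.0188 for siRNA 3488 and -0.0497 for siRNA 3488 over siRNA 2600. Without the filter, 0 members were called for both siRNAs and 0 for siRNA 3488 over siRNA 2600, where 0 and 459 of all probe sets were called. Without the intensity trend the calls were 0, 2, 0 and 0, and 591 instead of 2911 of all tested probe sets were called for siRNA 3488. Over all tested probe sets 0 were then called for both siRNAs, 0 for siRNA 2600 and 5 for siRNA 3488 over siRNA 2600. The mean of both siRNA effects in the fit of 3 groups gave 9 calls, where 1378 of all tested probe sets were called. Fitting only the arrays of both siRNA groups gave 0 for their difference, where 29 of all tested probe sets were called. Without Mysm1 and Taf1 the counts were 0 for both siRNAs and 1 for siRNA 2600, where 27 and 192 of all tested probe sets were called. Leaving out 1 array gave 0 to 9 calls for both siRNAs (median -0.101 to -0.0522), 2 to 21 for siRNA 3488 (-0.117 to -0.0818), 0 to 3 for siRNA 2600 (-0.0584 to 0.0214) and 0 to 4 for siRNA 3488 over siRNA 2600 (-0.154 to -0.0547). The siRNA 3488 count was 2 without siRNA 3488 replicate 2, and 4, 8 and 10 without scrambled control replicates 1, 2 and 3. The siRNA 2600 count was 0 without siRNA 2600 replicate 2 or any 1 control, and that of siRNA 3488 over siRNA 2600 was 0 without siRNA 3488 replicate 2 or scrambled control replicates 1 or 2, and 1 without siRNA 2600 replicate 1 or scrambled control replicate 3. The count for both siRNAs was 9 without siRNA 2600 replicate 1 and 0 without each other array. Over all tested probe sets that comparison gave 1304 without siRNA 2600 replicate 1, 1 without siRNA 3488 replicate 2 and 0 without each other array. Without scrambled control replicates 1, 2 and 3, all tested probe sets gave 37, 25 and 33 calls for siRNA 2600. For siRNA 3488 over siRNA 2600 they gave 444, 367 and 517. Replicate numbers were not used as pairs in the main fit, and whether they pair the arrays was not tested. Correlations of deviations between same-numbered arrays were -0.05 to 0.16. Of the 6 arrays that had a same-numbered array in another group, 4 were closest to their own number. With the replicate block the counts were 0 for both siRNAs, 16 for siRNA 3488 (15 lower, and 1 higher, Kmt2d 1399060_at at 0.30, while both Ezh2 calls were lost at adjusted p of 0.0566 and 0.0508), 0 for siRNA 2600 and 6 for siRNA 3488 over siRNA 2600. Over all tested probe sets the block gave 0, 2721, 67 and 1561 calls in the same order. The causes of these shifts were not tested. Dim probe sets were called less often: with siRNA 3488, 3.84% fell and 0.966% rose in the dimmest bin of all tested probe sets, against 9.23% and 19.6% in the brightest.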

Other observations

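The partners of the Kmt2 and Setd1 enzymes and the deacetylase complexes were described by count. Of 11 tested COMPASS partners, 1 rose (9.09%, where 6.89% of all tested probe sets did) and none fell with siRNA 3488, with a median of -0.06. Of 21 tested subunits of deacetylase complexes, 2 rose and 2 fell (9.52% each), with a median of -0.02. With siRNA 2600 neither list had a call, and their medians were 0.02 and 0.01.

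The median log2 deviation of the 118 member probe sets from the scrambled control mean was -0.09 and -0.12 on the siRNA 3488 arrays and 0.02 and -0.06 on the siRNA 2600 arrays, against -0.01 to 0.02 on the scrambled control arrays. For all tested probe sets it was -0.05 and -0.07 on the siRNA 3488 arrays and -0.02 and -0.01 on the siRNA 2600 arrays. The siRNA 2600 arrays thus lay on both sides of 0 for the members.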
